A study of Mus musculus with 3 samples.

Results

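Folate and one-carbon metabolism was followed through 8 genes on 3 arrays of cultured mouse cerebral cells. The genes encode the folate carriers Folr1 and Slc19a1, the cytosolic enzymes Mthfd1 and Shmt1, the mitochondrial enzymes Shmt2, Mthfd2 and Mthfd1l, and methionine synthase, Mtr. They were taken as the probes whose gene name in the scanner files is one of these symbols, which gave 13 probes among 55680 probes for 22328 genes. Of the 8 genes, 5 had 2 probes each. All 13 probes were well above background on all 3 arrays, none of their spots was saturated or marked as an outlier (0 each), and each probe was a single spot of 60 nt.

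The cultures were started from dissociated cerebrum of C57BL6/J embryos (embryonic day 18), grown in neurobasal medium with B27, and exposed to drug on day 10 in vitro for 24 h. The first culture received 1 mM valproate with 0.1% DMSO, the control culture 0.1% DMSO, and the other drug culture 100 µM lamotrigine with 0.1% DMSO. Valproate is an antiepileptic drug that also inhibits class I histone deacetylases, and the study compared it with DMSO to find genes affected by such inhibition. Lamotrigine is an antiepileptic drug that blocks sodium channels, and per the labels its array belonged to work on antiepileptic drugs rather than to the histone deacetylase study. There was 1 array per treatment, so the differences below were measured once and carry no p-value, and both drug comparisons share the same DMSO array.

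Folates carry single carbon units that cells use to make thymidylate, purines and methionine. Folate enters cells by receptors and carriers, and serine then gives its carbon to tetrahydrofolate in the cytosol or, by a parallel set of enzymes, in mitochondria, which export it as formate. In the brain the folate receptor Folr1 is known above all from the choroid plexus, where it moves folate into cerebrospinal fluid, and folate supply in pregnancy is a known concern with antiepileptic drugs.

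Levels are given as scaled signal, where a value of 100 equals the 75th percentile of that array, taken over non-control spots. That percentile was an intensity of 478 with valproate, 372 with DMSO and 388 with lamotrigine, and from 49.6% to 52.9% of spots were well above background. Precision was read from 399 other probes printed 10 times on each array. The technical SD of a log2 difference was worked out from the spread of their spots within each array. It was 0.24 for scaled signals under 25, 0.11 from 25 to 100, 0.08 from 100 to 400 and 0.06 above 400. What separate arrays, scaling, cultures, extractions or labellings add is not included. Scaling on the spike-in controls in place of the 75th percentile adds 0.35 (log2) to every difference of valproate from DMSO, 0.20 to that of lamotrigine from DMSO and 0.15 to that of valproate from lamotrigine. It moves the medians of all genes from -0.08, -0.05 and -0.03 to 0.27, 0.16 and 0.12.

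Among the 8 genes the most divergent readings came from probe pairs that target one transcript, so these sequences are shown first. The pair of Shmt1 probes, on chromosome 11 of the mm9 build, lay at 60603099 to 60603158 and at 60620453 to 60620512, on the minus strand. They began at positions 1584 and 394 of the same RefSeq transcript, 1190 bases apart in the transcript and 17354 bases apart in the genome. The dimmer Slc19a1 probe, whose reading stood apart from that of its brighter partner, lay on chromosome 10 at 76501259 to 76501318, on the plus strand, and began at position 300. The sequences are those the array files give, 5′ to 3′, with no base marked.
Shmt1, position 1584: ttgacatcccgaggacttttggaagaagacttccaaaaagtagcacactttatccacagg
Shmt1, position 394: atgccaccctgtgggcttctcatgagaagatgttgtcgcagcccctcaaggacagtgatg
Slc19a1, position 300: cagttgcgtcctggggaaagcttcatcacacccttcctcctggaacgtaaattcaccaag

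With valproate, Folr1 was lower and Shmt1 higher than with DMSO, each by under 2-fold, and the other 6 genes lay within 1.5-fold of DMSO on their brighter probes. Against DMSO, 0 of 8 genes were at least 2-fold apart, where 503 of 14346 genes (3.51%) were. At 1.5-fold the count was 2 of 8, Folr1 and Shmt1, against 12.2% of all genes. The median log2 difference of the 8 genes was -0.20, beside -0.08 for all genes, and it was 0.15 when arrays were scaled on the spike-in controls. With lamotrigine, 0 of 8 genes were 2-fold from DMSO (0.160% of all genes) and 0 of 8 were 1.5-fold away (1.88%). The median of the 8 genes was -0.17 there, beside -0.05 for all genes, and was 0.03 with spike-in scaling.

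For Folr1 and the brighter Shmt1 probe, the drugs lay farther from each other than valproate did from DMSO. The other Shmt1 probe was at -0.17 between the drugs. Between valproate and lamotrigine, 2 of 8 genes were at least 2-fold apart, Folr1 lower and Shmt1 higher with valproate, against 3.75% of all genes. The median of the 8 genes was 0.10, beside -0.03 for all genes.

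**Figure D1:**
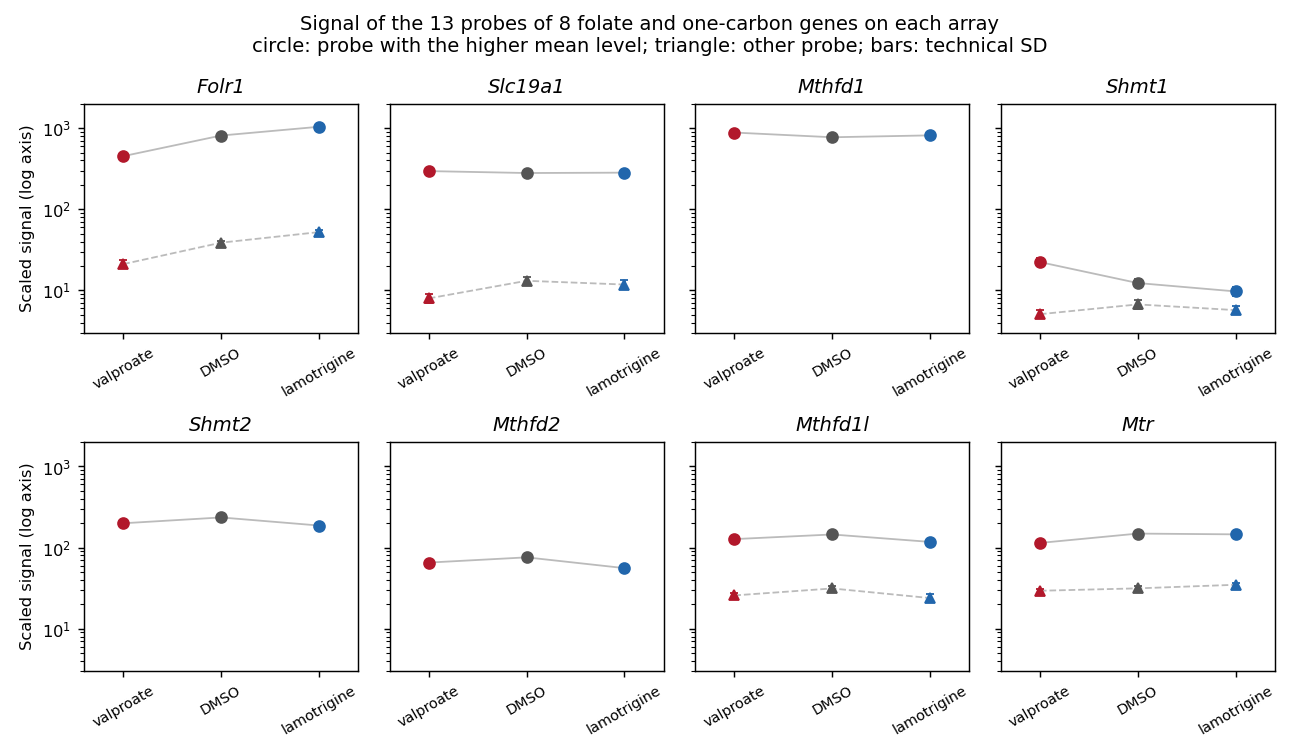
Scaled signal on a log axis of the 13 probes of the 8 genes on the valproate, DMSO and lamotrigine arrays. Circles are the probe with the higher mean level of a gene, triangles the other probe, and bars the technical SD of repeated spots. Both Folr1 probes read lowest with valproate and highest with lamotrigine, and the brighter Shmt1 probe runs the other way.

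Folr1, the glycosylphosphatidylinositol-anchored folate receptor alpha, was read by a bright and a dim probe. The bright probe, on chromosome 7 at 109006846 to 109006905 of mm9, read 451 with valproate, 809 with DMSO and 1038 with lamotrigine in scaled signal. The dim probe, 10126 bases away at 109016972 to 109017031, had 21.1, 38.7 and 52.2 in the same order. Both probes thus placed the 3 arrays in one order, valproate lowest and lamotrigine highest. The log2 difference from DMSO with valproate was -0.84 and -0.88 on the 2 probes, 1.80-fold and 1.84-fold lower, with technical SDs of 0.06 and 0.19. With lamotrigine it was 0.36 and 0.43. Of all genes, 2.30% lay as far below DMSO with valproate, and 4.32% as far above it with lamotrigine.

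Valproate against lamotrigine, the Folr1 differences were -1.20 and -1.31, 2.30-fold and 2.48-fold lower, and 0.963% of all genes lay as far down. Each of these Folr1 directions held under all alternatives of scaling and background. The filters could not change them, since both probes were detected on all arrays without outlier spots. With valproate the bright probe ranged from -0.84 to -0.49 against DMSO, the last with spike-in scaling, and the mean of both probes was -0.86. Against lamotrigine the bright probe ranged from -1.20 to -1.06 and the mean of both probes was -1.26, and the dim probe came under 2-fold, at -0.95, with normexp background correction.

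Because Folr1 is a marker of choroid plexus epithelium, the other markers of that epithelium are given beside it. Ttr, the thyroid hormone carrier that this epithelium secretes, had a scaled signal of 1411 with valproate, 1490 with DMSO and 2213 with lamotrigine. The log2 differences of Ttr from DMSO were -0.08 with valproate, positive under 3 of 9 alternatives, and 0.57 with lamotrigine. Clic6, a chloride channel family protein, was at 0.30 with valproate and 0.63 with lamotrigine. The water channel Aqp1 was at 0.26 (negative with normexp) and 0.68, the transcription factor Otx2 at 0.02 (negative with the mean of its probes) and 0.09, and the secreted antagonist Sostdc1 at -0.00 and 0.41. Against DMSO, then, these 5 genes were higher with lamotrigine on the probe used, as Folr1 was. With valproate they lay between -0.08 and 0.30 and Folr1 lay at -0.84. The other Otx2 probe was at -0.04 with lamotrigine, and Aqp1, at scaled signals from 11.2 to 18.0, came down to 0.25 in its lowest alternative.

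The potassium channel subunit Kcne2 was above background with lamotrigine only, at least 0.75 log2 above DMSO, and Kl and Prlr were below background on all 3 arrays. Without Folr1 the list held 8 genes, of which 5 were measured on all arrays. The summed scaled signal of the 8 was 2120 with valproate, 2175 with DMSO and 3012 with lamotrigine, most of it from Ttr, and without Ttr it was 709, 685 and 799. In a culture of mixed cells, fewer cells of a type and less RNA per cell cannot be told apart. The part of choroid plexus cells in the Folr1 values was not tested for either drug.

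**Figure D2:**
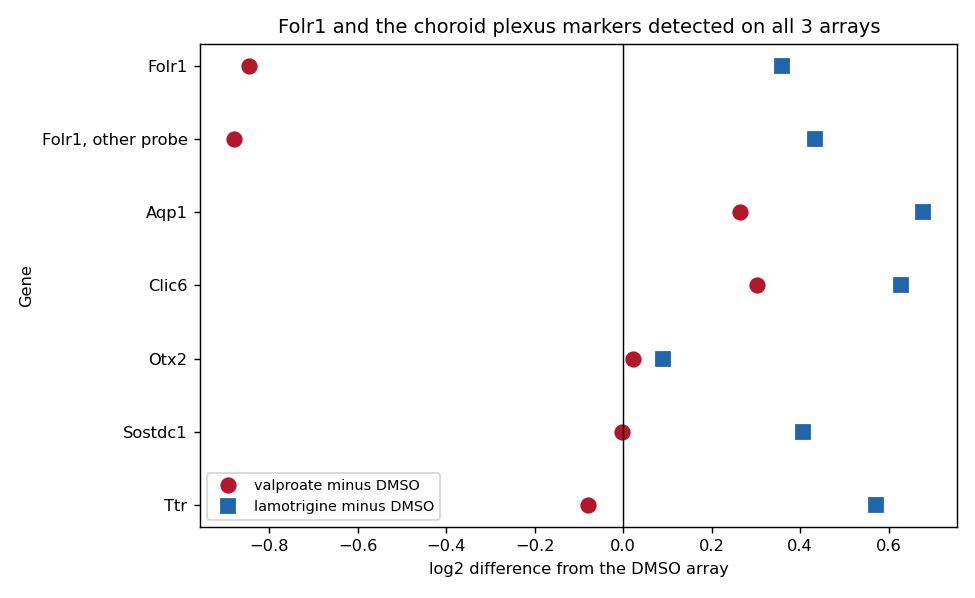
Log2 difference from the DMSO array (horizontal axis) of both Folr1 probes and of the 5 other choroid plexus markers detected on all 3 arrays, with valproate as circles and lamotrigine as squares. The lamotrigine values are all above 0, from 0.09 to 0.68, and with valproate the Folr1 probes, at -0.84 and -0.88, lie apart from the other markers.

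Folr2, folate receptor beta, is a second receptor of the family. Its scaled signal was 8.87 with DMSO and 14.6 with lamotrigine, a difference of 0.72, and it was not well above background with valproate. Folr2 with valproate was at least 2.25-fold lower than with DMSO and at least 3.71-fold lower than with lamotrigine, by the bound that takes its own signal there. It is thus ordered across the arrays as Folr1 is, at signals where the technical SD is widest. Folr2 also marks macrophages. Of 8 microglial and macrophage markers, Cx3cr1, P2ry12, Tyrobp and Mrc1 were below background on all arrays, and Itgam, Csf1r, Cd68 and Aif1 were above it on all. The summed scaled signal of the list was 1590 with valproate, 1435 with DMSO and 1572 with lamotrigine. Most of it came from a single Itgam probe, at 1438, 1264 and 1398, and the other Itgam probes were below background on all arrays. The part of macrophages in the Folr2 values was not tested.

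Slc19a1, the reduced folate carrier, showed almost no difference on its bright probe. That probe, on chromosome 10 at 76512874 to 76512933, read a scaled signal of 295 with valproate, 279 with DMSO and 282 with lamotrigine. The differences from DMSO were 0.08 with valproate and 0.02 with lamotrigine, within the technical SD of 0.08. The dim probe, printed above, had 7.97, 13.1 and 11.8, which is -0.72 with valproate and -0.15 with lamotrigine. It lay 2.97 technical SDs from DMSO with valproate, at a signal near the detection floor of 3.88 for that array. With the mean of both probes in place of the brighter one, Slc19a1 with valproate was at -0.32, so its sign depends on the probe.

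Of the 7 genes of folate entry and retention, 6 were measured with valproate and 0 were 2-fold from DMSO. The median of the list was -0.16 with valproate, -0.39 with Folr2 at its bound and 0.19 under spike-in scaling, and 0.02 with lamotrigine. The proton-coupled transporter Slc46a1 was at 0.12 with valproate and 0.09 with lamotrigine, and the mitochondrial folate carrier Slc25a32 at -0.39 and -0.24. Fpgs, which adds the glutamate tail that keeps folate in the cell, was at -0.56 with valproate and -0.21 with lamotrigine. Ggh, the hydrolase that removes that tail, was at 0.30 and -0.06. The enzyme pair for the tail therefore lay on opposite sides of DMSO with valproate, Fpgs at scaled signals of 127 against 188 and Ggh at 1088 against 882.

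In the cytosol, Mthfd1 differed little and Shmt1 differed by probe. Mthfd1, the trifunctional enzyme that joins formate to tetrahydrofolate and interconverts the products, had a scaled signal of 881 with valproate, 771 with DMSO and 813 with lamotrigine. Its probe lay on chromosome 12 at 77418622 to 77418681. The differences from DMSO were 0.19 with valproate and 0.08 with lamotrigine, 2.97 and 1.19 technical SDs, and 20.7% of all genes lay as far above DMSO with valproate.

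Shmt1, the cytosolic serine hydroxymethyltransferase that moves a carbon from serine to tetrahydrofolate, was dim on both probes. The probe at position 1584 had a scaled signal of 22.3 with valproate, 12.3 with DMSO and 9.71 with lamotrigine. The probe at position 394 had 5.09, 6.72 and 5.71, near the detection floors of 3.88, 5.29 and 4.63 of those arrays. The first probe was 0.86 above DMSO with valproate, 1.81-fold, and the second was at -0.40, so the pair gave opposite signs. With a technical SD of 0.24 these were 3.54 and 1.65 SDs from 0. With lamotrigine both probes of Shmt1 were below DMSO, at -0.34 and -0.23.

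Valproate against lamotrigine, Shmt1 was at 1.20 on the first probe, 2.30-fold higher, and at -0.17 on the second. The first value came down to 0.51 with normexp background correction, whose added offset of 50 draws differences of dim probes toward 0. The mean of the probes was also below 2-fold. Against DMSO the first probe gave from 0.24 with normexp to 1.21 with spike-in scaling, and the mean of both probes was 0.23. The higher Shmt1 reading with valproate thus rests on 1 dim probe of 2.

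Thymidylate synthase, Tyms, works beside Shmt1 in making thymidylate. Tyms had a scaled signal of 19.8 with valproate, 11.6 with DMSO and 12.5 with lamotrigine, a difference of 0.77 with valproate, 0.18 with normexp background correction, and 0.10 with lamotrigine. Of 14 DNA replication and mitosis genes, the cell division companions of thymidylate synthesis, 14 lay above DMSO with valproate. Their values were 0.15 or more with a median of 0.49, where 30.3% of all genes lay at 0.08 or more. Among these genes the helicase subunits Mcm2, Mcm3 and Mcm6 were at 0.78, 0.63 and 0.54, and the topoisomerase Top2a at 0.66. None of the 14 was 2-fold apart (0 of 14, against 3.51% of all genes). With lamotrigine their median was -0.04, and positive with quantile normalization, the deposited table and spike-in scaling. The part of dividing cells in the Shmt1 and Tyms values was not tested.

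The 3 mitochondrial enzymes were lower than DMSO on both drug arrays (with valproate, not under spike-in scaling) and lowest with lamotrigine. Their median was -0.33 with lamotrigine, negative under every alternative run, and -0.21 with valproate, where spike-in scaling gave 0.14. With valproate, 28.3% (Shmt2), 31.3% (Mthfd2) and 34.3% (Mthfd1l) of all genes lay as far below DMSO. With lamotrigine the shares were 5.10%, 2.02% and 6.61%. The 3 promoters are shown because the values of the 3 enzymes lay together. They are the 120 bases before the RefSeq start site in the GRCm38.p6 build, 5′ to 3′ in the direction of the gene, with motif matches in capitals.
Mthfd2, chr6:83317605-83317724, minus strand: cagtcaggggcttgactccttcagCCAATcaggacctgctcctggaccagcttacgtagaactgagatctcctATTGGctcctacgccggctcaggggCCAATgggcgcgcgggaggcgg
Mthfd1l, chr10:3972955-3973074, plus strand: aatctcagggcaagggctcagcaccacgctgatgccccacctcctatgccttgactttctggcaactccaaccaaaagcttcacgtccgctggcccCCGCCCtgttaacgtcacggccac
Shmt2, chr10:127522445-127522564, minus strand: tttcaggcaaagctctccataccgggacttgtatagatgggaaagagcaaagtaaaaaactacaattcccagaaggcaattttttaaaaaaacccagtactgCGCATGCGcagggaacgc

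The capitals mark different motifs in the 3 stretches. Mthfd2 has 3 CCAAT boxes (CCAAT or its reverse), beginning at -96, -47 and -22 from the start site. Mthfd1l has a GC box (GGGCGG) on its reverse strand at -24, and Shmt2 has the palindromic NRF1 core CGCATGCG at -18. No match in these stretches overlaps another. Both strands of all 32851 RefSeq promoter windows, 250 bases before to 50 after the start, were searched for 6 motifs. Of the 8 genes, 7 had windows among these, 8 windows in all, and Folr1 had no window.

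Of all windows, 37.4% held a CCAAT box, 35.7% a GC box and 1.87% the NRF1 core. Among the genes studied, CCAAT was in windows of Mthfd1, Mthfd2, Mtr and Shmt1, and GGGCGG in those of Mthfd1, Mthfd1l, Mtr, Shmt1 and Slc19a1. The ATF4 element TGATGNAA (3.97% of all windows), the E2F motif TTTGGCGC (0.514%) and the cAMP response element TGACGTCA (1.79%) were in 0 of the 8 windows. That says only that these letters are not in those windows.

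Shmt2, the mitochondrial serine hydroxymethyltransferase, had a scaled signal of 199.5 with valproate, 235 with DMSO and 187 with lamotrigine. Its probe lay on chromosome 10 at 126954811 to 126954870 of mm9. The differences from DMSO were -0.24 with valproate, 0.11 with spike-in scaling, and -0.33 with lamotrigine. The DMSO array was the highest of the 3, and both differences exceeded the technical SD of 0.08.

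Mthfd2, the mitochondrial dehydrogenase and cyclohydrolase of the folate cycle, is best known from dividing and embryonic cells. Its probe, on chromosome 6 at 83256518 to 83256577, read a scaled signal of 65.4 with valproate, 75.9 with DMSO and 55.9 with lamotrigine. Mthfd2 was at -0.44 with lamotrigine, 1.36-fold lower and the lowest of the 8 genes there with the scaling used here, and 2.02% of all genes lay as far down. With valproate it was at -0.21, 1.87 technical SDs from 0, and at 0.14 with spike-in scaling.

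Mthfd1l, which releases formate in mitochondria, gave like readings on both probes. The bright probe, on chromosome 10 at 6190563 to 6190622, had 127 with valproate, 145 with DMSO and 118 with lamotrigine. The other, at 6198416 to 6198475, had 25.8, 31.4 and 23.9. On both probes DMSO was highest and lamotrigine lowest. The differences with lamotrigine were -0.30 and -0.39, and those with valproate were -0.19 and -0.29, both turning positive with spike-in scaling.

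Between the drugs these 3 enzymes were 0.09, 0.23 and 0.11 higher with valproate for Shmt2, Mthfd2 and Mthfd1l. Aldh1l2, Mthfd2l and Gldc, also of mitochondrial folate metabolism, were likewise lowest with lamotrigine with the scaling used here. Under spike-in scaling Mthfd2l was above DMSO with lamotrigine. With valproate these genes did not share one direction from DMSO. Aldh1l2, which oxidises formyl folate in mitochondria, was at 0.40 with valproate and -0.25 with lamotrigine, and Mthfd2l, a second mitochondrial dehydrogenase, at -0.00 and -0.15. Gldc, the glycine decarboxylase that also feeds carbon to mitochondrial folate, had a scaled signal of 480 with valproate, 513 with DMSO and 343 with lamotrigine, which is -0.10 and -0.58. Of 14 interconversion genes, 13 were measured, 0 were 2-fold from DMSO with either drug, and their median was -0.06 with valproate and -0.15 with lamotrigine, both positive with spike-in scaling.

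**Figure D3:**
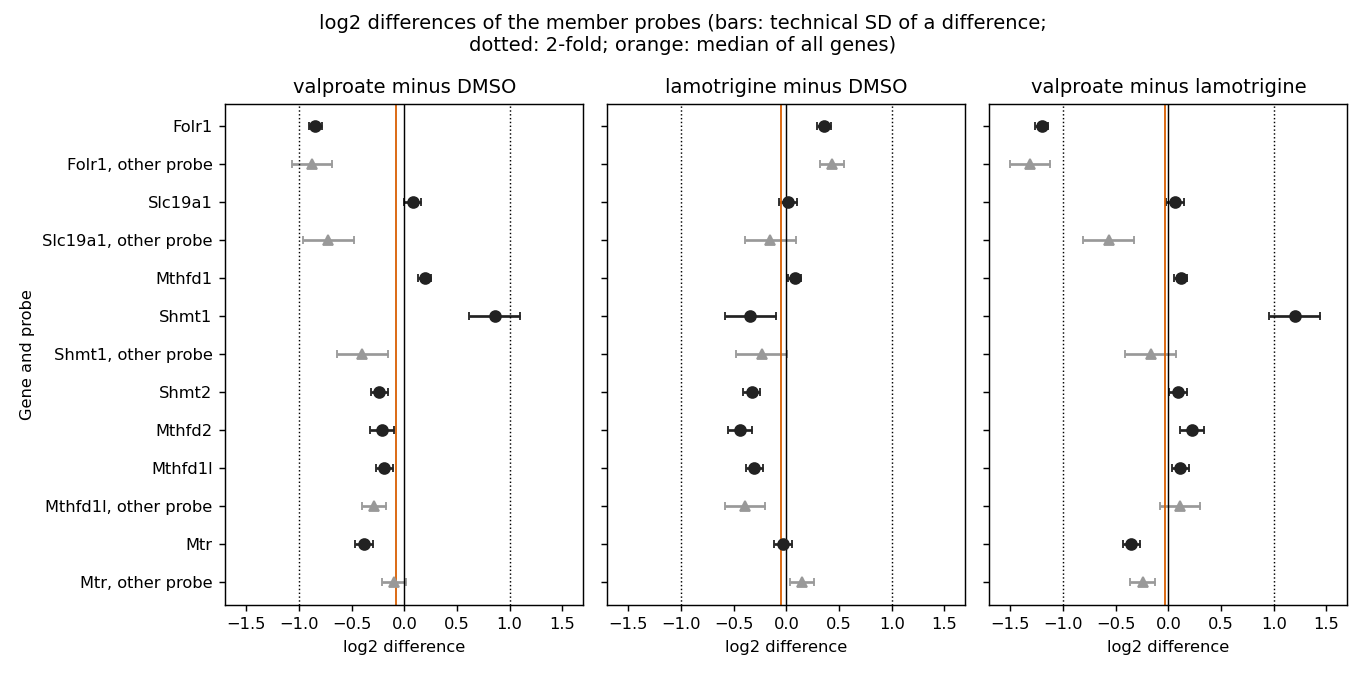
Log2 differences of the 13 probes for valproate minus DMSO, lamotrigine minus DMSO and valproate minus lamotrigine, with the technical SD of a difference as bars, 2-fold as dotted lines and the median of all genes in orange. Black circles are the brighter probe of a gene and grey triangles the other. The Folr1 probes lie close together in all 3 panels, and the Shmt1 and Slc19a1 pairs part with valproate.

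Genes of the ATF4 stress response were given because ATF4 is known to drive mitochondrial one-carbon enzymes together with serine synthesis. Of 12 such genes, 10 were below DMSO with valproate and 9 with lamotrigine. The medians of all genes were -0.08 and -0.05, so more of all genes lay below DMSO than above it too. The medians of the 12 stress genes were -0.33 with valproate, 0.02 with spike-in scaling, and -0.38 with lamotrigine. Trib3, a pseudokinase induced by stress, was at -1.28 with valproate and -1.43 with lamotrigine, from scaled signals of 37.8 and 34.2 against 92.1 with DMSO. Other genes of the list were lower on both drug arrays as well. Atf5, a transcription factor, was at -1.19 and -0.74, and Chac1, which degrades glutathione, at -0.84 and -0.94. Atf4 itself was at -0.60 and -0.43, and Nupr1, a stress-induced regulator, at -0.58 and -0.53.

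Sesn2, a stress-induced regulator of TOR signalling, lay on the other side of DMSO, at 0.51 with valproate and 0.25 with lamotrigine. Asns, asparagine synthetase, was at -0.18 with valproate, positive with spike-in scaling, and -0.45 with lamotrigine. Both comparisons use the same DMSO array, so the values with valproate and with lamotrigine are not independent. Whether the mitochondrial enzymes and the stress genes are linked on these arrays was not tested.

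The 3 serine synthesis enzymes, which make the serine that Shmt1 and Shmt2 use, gave unlike values. Psph, the last step, was at -0.51 with valproate and -0.36 with lamotrigine, and its other probe at -0.27 with valproate. Phgdh, the first step, was at -0.20, positive with spike-in scaling, and Psat1 at 0.01 with valproate. For the 8 genes of serine synthesis and glycine cleavage the median was 0.05 with valproate and -0.10 with lamotrigine, the latter positive with spike-in scaling, and 0 were 2-fold apart.

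Mtr, the cobalamin-dependent methionine synthase that passes the folate carbon to homocysteine, was lower with valproate on its bright probe. That probe, on chromosome 13 at 12278823 to 12278882, read a scaled signal of 114 with valproate, 149 with DMSO and 146 with lamotrigine. The difference was -0.38 with valproate, 4.67 technical SDs and -0.03 under spike-in scaling, and 14.4% of all genes lay as far down. With lamotrigine Mtr was at -0.03, positive with spike-in scaling and with the mean of its probes. The other Mtr probe, 342 bases away at 12279165 to 12279224, had 29.4, 31.5 and 34.8, a difference of -0.10 with valproate and 0.15 with lamotrigine. Valproate was the lowest array on both probes of Mtr with this scaling, the size differed between them, and under spike-in scaling the other probe was at 0.25 with valproate.

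Of 13 methionine cycle and transsulfuration genes, 10 were measured and 0 were 2-fold from DMSO, with medians of -0.14 with valproate and -0.15 with lamotrigine, both positive with spike-in scaling. Cbs, which starts transsulfuration of homocysteine, was at -0.42 with valproate and -0.22 with lamotrigine. Cth, the following step, was at 0.46 with valproate and at 0.42 on its other probe. Mat2a, which makes S-adenosylmethionine, was at -0.39 with valproate, but at -0.08 on its other probe, and at -0.23 with lamotrigine. Ahcy, which clears S-adenosylhomocysteine, was at -0.30 on its brightest probe and at 0.35 and 0.44 on the others, so no direction is given for it. Bhmt, Bhmt2 and Mat1a, known from liver, were below background on all arrays.

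Mtr needs cobalamin, and the 6 genes of cobalamin delivery had medians of -0.02 with valproate, positive under 4 alternatives, and -0.09 with lamotrigine, positive with spike-in scaling. Abcd4, which exports cobalamin from lysosomes, was at 0.64 with valproate and 0.06 with lamotrigine. The transcobalamin receptor Cd320 was at -0.36 with valproate, and Mmachc, a cobalamin chaperone, at -0.28 with valproate, positive with spike-in scaling, and -0.22 with lamotrigine.

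Purine synthesis uses formyl folate at GART and ATIC. Prps2, which makes the ribose phosphate donor, was at 0.57 with valproate, and Gart and Atic were both at 0.41, with 0.11 and 0.28 on their other probes. Ppat, the committed step, was at -0.40 with valproate and -0.42 with lamotrigine, but at 0.09 and -0.10 on its other probe. The median of 8 purine genes was 0.18 with valproate and -0.03 with lamotrigine, the latter positive under 4 alternatives, and 0 were 2-fold apart. Of 6 genes of choline oxidation and related donors, 4 were measured and 0 were 2-fold apart, with medians of -0.11 with valproate and -0.12 with lamotrigine, both positive with spike-in scaling. Pemt, which makes phosphatidylcholine with S-adenosylmethionine, was at -0.48 with valproate and at -0.72 and -0.47 on its other probes.

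Over the whole pathway of 62 genes, 55 were measured with valproate and DMSO and 56 with lamotrigine and DMSO. Of them 0 were 2-fold apart in either comparison, against 3.51% of all genes with valproate and 0.160% with lamotrigine. The same shares of all genes apply to the single lists above. Folr2 with valproate, given above as a bound, is outside these counts. The pathway median was -0.05 with valproate, with or without Folr2 at its bound, and -0.10 with lamotrigine. For the 54 genes other than the 8, the medians were -0.00, or -0.03 with Folr2 at its bound, and -0.10. Between the drugs 55 genes were measured, and the 2 that were 2-fold apart were Folr1 and Shmt1, against 3.75% of all genes.

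**Figure D4:**
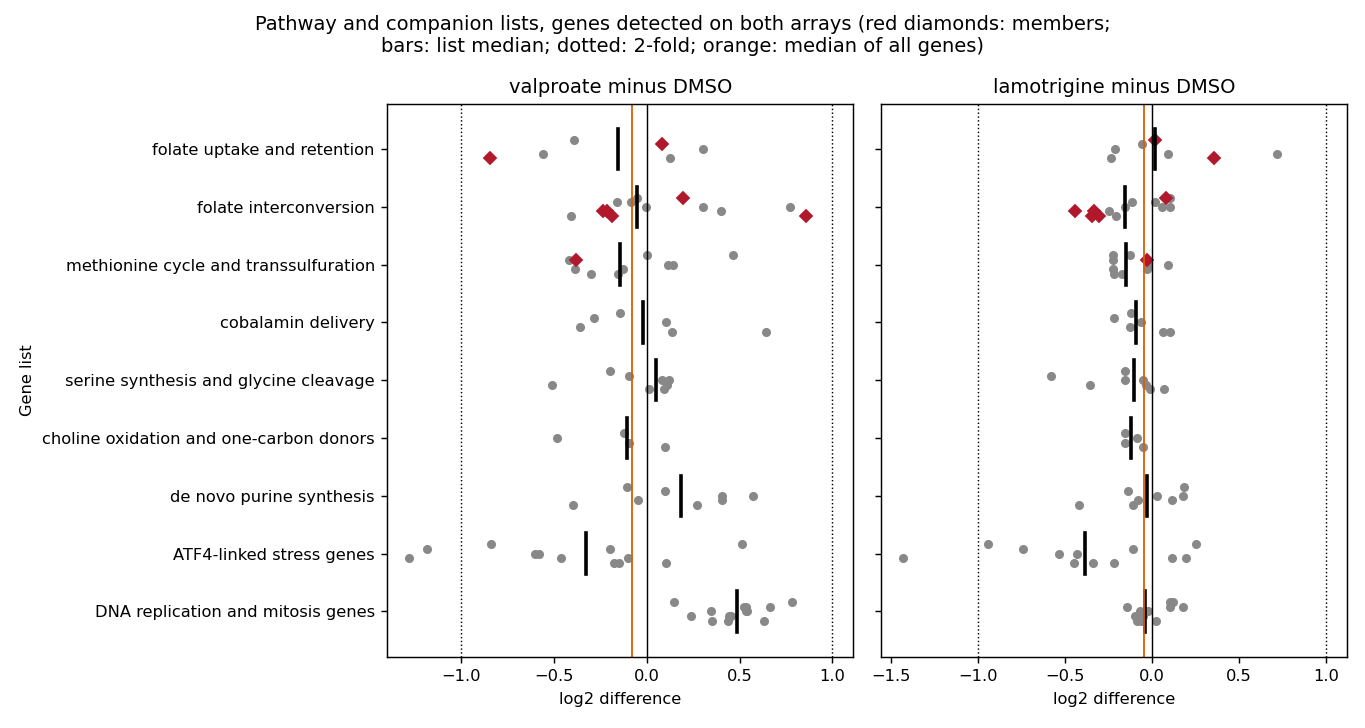
Log2 difference from DMSO (horizontal axes) of the genes of 9 lists detected on both arrays, for valproate and lamotrigine, with the 8 genes as red diamonds, list medians as black bars, 2-fold as dotted lines and the median of all genes in orange. The DNA replication list lies above 0 with valproate (median 0.49), and the stress genes reach below the 2-fold line with both drugs.

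Markers of the cell types in the cultures differed between arrays as well. All 9 neuronal and all 10 astrocyte markers were above background on every array, and 4 of 8 microglial markers were. The summed scaled signal of the astrocyte markers was 22230 with valproate, 42465 with DMSO and 41759 with lamotrigine, with Aqp4, a water channel, at -1.62 with valproate. Aldoc, an aldolase at -1.37 with valproate, had the largest share of that sum, and without it the sums were 12157, 16470 and 16154. Aldh1l1, a folate enzyme on both the interconversion and the astrocyte list, was at -0.41 with valproate and -0.21 with lamotrigine. The neuronal sum was 24888, 32212 and 28220, with 4 of 9 genes above DMSO with valproate and 5 below, from the tubulin Tubb3 at -0.94 to the neurofilament Nefm at 0.60.

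In the oligodendrocyte lineage 3 of 9 measured genes were above DMSO with valproate and 6 below. Mbp, a myelin protein, was at 0.60 on its brightest probe. A dim Mbp probe was at -0.44, and another was above background with DMSO but not with valproate. Gpr17, a receptor of maturing precursors, was at -3.75 with valproate. Mag, another myelin protein, was not well above background with valproate, a bound of -1.35. Col3a1 of the fibroblast list was at -0.97 with valproate, the macrophage protein Cd68 at -0.36 and the endothelial cadherin Cdh5 at -0.45. The endothelial receptor Flt1 was above background with valproate only, a bound of 2.37, and its other probes were below background on all arrays. Of 6 endothelial markers, 2 were measured on all arrays. The medians of the lists with valproate were -0.49 for astrocytes, -0.28 for neurons, -0.38 for the oligodendrocyte lineage (-0.47 with Mag at its bound), 0.00 for microglia, -0.20 for fibroblasts and -0.13 for endothelium (0.22 with genes at their bounds). Under spike-in scaling those of neurons, fibroblasts and endothelium were positive. With lamotrigine they were -0.02, -0.26, -0.18, 0.08, -0.10 and 0.13 (0.31 with bounds) in the same order, and those of astrocytes, the oligodendrocyte lineage and fibroblasts were positive under spike-in scaling. The part of these cell types in the values of the 8 genes was not tested.

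**Figure D5:**
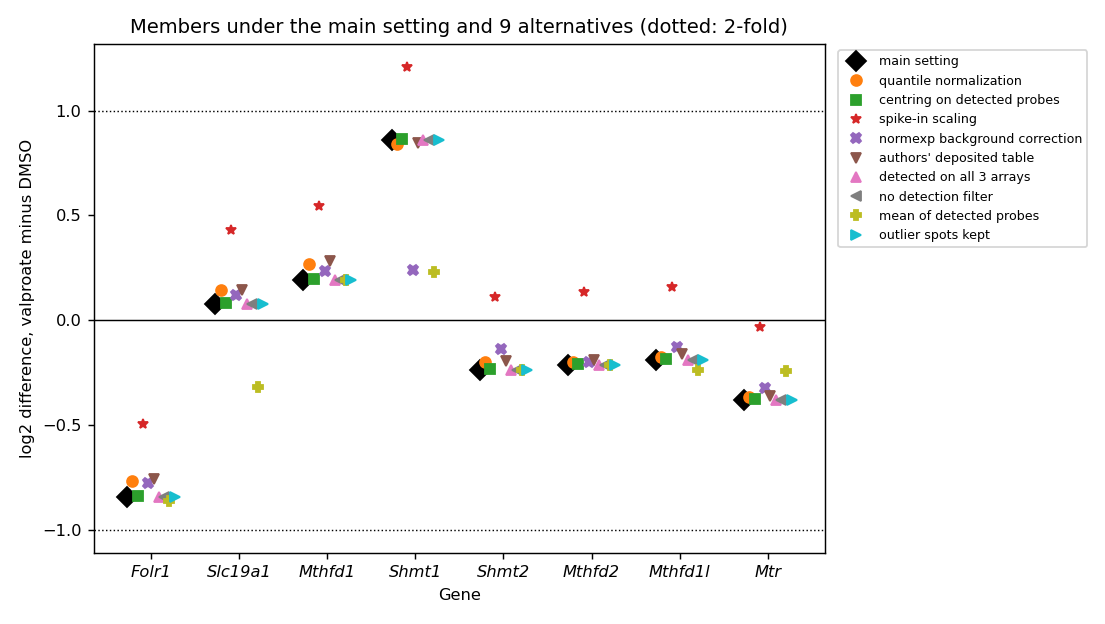
Log2 difference of valproate minus DMSO for the 8 genes under the main setting (black diamonds) and 9 alternatives, with 2-fold as dotted lines. On the brighter probe or the mean of probes, Folr1 stays below 0 and Shmt1 above it throughout. The other Shmt1 probe, not drawn by itself, was at -0.40 and below 0 under every alternative run. Shmt2, Mthfd2 and Mthfd1l cross 0 with spike-in scaling and Slc19a1 crosses it with the mean of its probes.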

How the data were processed

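RNA of 3 cultures, extracted with TRIzol and labelled with Cy3, was hybridised to 3 one-colour Agilent arrays of 1 slide. Per the file headers, the intensity used is the processed signal of Feature Extraction 10.7.1.1, background-subtracted on each array, with no normalization between arrays, and probes were placed on mm9. A second table of intensity, 1 column per array, was deposited by the authors. Its sorted columns were equal to within 0.0312%, as quantile normalization gives, its linear columns each had a median of 22.6, and the software behind it was not given in the sources used here. It served as an alternative.

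Each array's log2 intensity was centred on its 75th percentile over 59305 non-control spots. Outlier spots were left out. A gene is its probe with the highest mean level. Probes were named by RefSeq accession (27235), symbol (3581) or older symbol (565), and 24299 had no gene. Differences were taken where both arrays were well above background. Where 1 was not, it was set to its detection floor (3.88 for valproate, 5.29 for DMSO, 4.63 for lamotrigine) or its own signal if higher, and the value is a bound. Medians leave bounds out unless stated. Python 3.11.15 with pandas 2.3.3 was used, R 4.3.3 with limma 3.58.1 for normexp, and the computation was tested on simulated data.

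The 8 genes and all lists were chosen with earlier results of these data known. The text names, from each pathway or companion list, up to 4 genes farthest from 0 with valproate, up to 2 with lamotrigine and all at least 2-fold apart, every choroid plexus marker, and the farthest gene of each other cell type. Genes named beyond that (Slc46a1, Mthfd2l, Psat1, Ahcy, Nupr1, Sesn2, Asns, Mag, Mbp, Nefm, Aldoc, Itgam, Csf1r, Aif1, Flt1 and those below background) were chosen after their values were seen. Promoters come from RefSeq, GRCm38.p6.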

Additional observations from a re-analysis of the deposited data

Results flagged for a closer look

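Folr1 stood on opposite sides of DMSO with the 2 drugs, below it with valproate and above it with lamotrigine, on both of its probes. The log2 difference of valproate minus lamotrigine was -1.20 on the bright probe and -1.31 on the dim probe. With 1 array per treatment this difference between the drugs was not tested.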

How the results depend on the processing

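Each value was recomputed under quantile normalization, centring on detected probes, spike-in scaling, normexp with an offset of 50, the deposited table, a 1.5-fold threshold, the mean of a gene's probes, outlier spots included, and with detection required on all 3 arrays or on none. No paired analysis was possible because each treatment has 1 array. Spike-in scaling, on 6 of 10 spike-in probes, raised the values by 0.35 (valproate minus DMSO), 0.20 (lamotrigine minus DMSO) and 0.15 (valproate minus lamotrigine), and the median of all genes became 0.27, 0.16 and 0.12. Against DMSO with valproate it put 1 of the 8 genes past 2-fold, Shmt1, and 821 of all genes (744 higher and 77 lower, beside 300 and 203). With lamotrigine it gave 49 genes (43 and 6, beside 14 and 9), and between the drugs 447 higher and 165 lower, beside 300 and 246. The medians of the 8 genes became 0.15, 0.0345 and 0.25. Normexp gave 191, 4 and 221 genes for the 3 comparisons, and 1 of the 8 genes between the drugs, as did the mean of probes. With lamotrigine the normexp split was 0 higher and 4 lower, and quantile normalization and the deposited table each gave 11 and 15. Without the detection filter 1957, 1160 and 2035 genes were 2-fold apart. At 1.5-fold, 1750, 269 and 1748 of all genes were, and 2, 0 and 2 of the 8 genes. The cause was not tested. Of 4005 other recomputed values, 3234 stayed within the technical spread, 771 moved beyond it, and 0 values at least 2-fold apart turned sign. A detected probe without outlier spots could not move under the detection and outlier alternatives. Nor could a gene with 1 probe move under the mean of probes. The values that stayed therefore include some that were fixed in advance. Dim probes limit the reading of Shmt1, Tyms, Folr2 and the second Slc19a1 probe, whose technical SD of a difference is 0.24.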
